A study of Mus musculus with 5 samples.

Results

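Dense clusters of binding regions of the cardiac transcription factors Tbx3, Nkx2-5 and Gata4 were examined at 3 places in the mouse genome: the window of Tns1, the interval from Cebpb to Ptpn1, and the window of Shb. Their members are all regions of the 3 deposited lists that overlap chromosome 1 from 73.95 to 74.18 Mb (Tns1), chromosome 2 from 167.51 to 167.81 Mb (Cebpb to Ptpn1) or chromosome 4 from 45.43 to 45.55 Mb (Shb), all in mm9 coordinates. These windows were picked by the number of regions they hold, since each contains a group of 16 or more regions joined across gaps of 10 kb or less. The count of regions is therefore a description and carries no test. In all, 115 of the 21703 regions of the series were members: 71 of 13242 Tbx3 regions, 38 of 6705 Nkx2-5 regions and 6 of 1756 Gata4 regions.

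The regions come from chromatin immunoprecipitation followed by sequencing (ChIP-seq), in which DNA bound by a protein is pulled down with an antibody and sequenced, of adult mouse heart on the FVB/N background. Tbx3 was profiled in Myh6-MCM;CAG-CAT-TBX3 hearts, which carry a TBX3 transgene, and Nkx2-5 and Gata4 were profiled in wildtype hearts. In such a design the Myh6 promoter drives the MCM recombinase in cardiomyocytes. Once that recombinase is activated, it unblocks the CAG-driven transgene there. Tbx3 regions thus describe hearts of a genotype built to add TBX3. How the recombinase was activated is not stated here, and the level of TBX3 was not measured. Each list is 1 library, the lists hold positions only, and genotype and factor cannot be told apart for Tbx3. Of the 5 libraries in the series, the Myh6-MCM control made with the Tbx3 antibody and the wildtype p300 library were not analysed here. Region lists hold no expression values, so the tissue label was not checked against marker genes.

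Tbx3 is a T-box repressor that helps to set up the pacemaker and conduction tissue of the heart. Nkx2-5 is a homeodomain factor and Gata4 a zinc-finger factor, and both activate genes of working cardiomyocytes. Such factors often bind many separate elements, including enhancers, around a gene. The genes that name the windows are not ion channel genes. Tns1 encodes tensin 1, which links integrins in focal adhesions to the actin cytoskeleton. Cebpb encodes a basic leucine zipper transcription factor of inflammation, metabolism and cell growth. Ptpn1 encodes the tyrosine phosphatase PTP1B, which removes phosphate from the insulin and leptin receptor pathways. Shb encodes an SH2-domain adaptor protein that acts downstream of receptor tyrosine kinases.

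Gene names and gene order were taken from RefSeq of GRCm38, which is not the build of the regions. No region was placed in an exon, intron or promoter. In that order Tns1 (gene ID 21961) is followed by Rufy4 and by Cxcr2, a chemokine receptor gene, so regions near the upper end of the Tns1 window could not be assigned among these genes. No protein-coding gene and 13 long non-coding RNA genes lie between Cebpb (12608) and Ptpn1 (19246). Shb (230126) stands between Slc25a51 and Gm829.

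Promoter sequence was matched by symbol for all 4 genes (RefSeq, GRCm38.p6, from 250 bases before to 50 bases after each start) and searched on both strands for short binding motifs of the 3 factor families. The T-box half-site GTGTGA occurred in 1 of the 4 promoters, that of Shb, against 14.5% of the 32851 promoters in the table. The NK2 motif TNAAGTG occurred in none of the 4, against 11.5% of all promoters, and its core AAGTG in 1, that of Ptpn1, against 46.4%. None of the 4 GATA forms (AGATAA or AGATAG or TGATAA or TGATAG) was found in the 4 promoters, against 29.8% of all, and the core GATA occurred in 1, again that of Ptpn1, against 57.9%. The cores lie within the longer NK2 and GATA forms, so those counts are not independent. These 4 promoters were rich in G and C, at 75.7% for Tns1, 80.7% for Cebpb, 74.0% for Ptpn1 and 75.0% for Shb, against a median of 52.7% over the table. A match is a run of letters and not a measured site, and whether a deposited region covers it was not tested. The 3 stretches with a match are shown 5′ to 3′ on the strand of the gene, with the match in capitals.
Shb (chromosome 4, minus strand, T-box match read on the opposite strand, starting at transcribed base 23): ggcggccgagtgTCACACacgcggcggctc
Ptpn1 (chromosome 2, plus strand, NK2 core starting 57 bases before the start): tccgcccccgcggAAGTGccggccgccttt
Ptpn1 (GATA core starting 240 bases before the start): tcgaactcagGATActccccgagtcccgcc

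The Tns1 window held the most regions, 56 in 230 kb, or 24.3 per 100 kb. It held 39 Tbx3, 15 Nkx2-5 and 2 Gata4 regions. The Cebpb-Ptpn1 window held 39 regions in 300 kb (13.0 per 100 kb), of which 22 were of Tbx3, 16 of Nkx2-5 and 1 of Gata4. The Shb window held 20 regions in 120 kb (16.7 per 100 kb), of which 10 were of Tbx3, 7 of Nkx2-5 and 3 of Gata4. Tbx3 was thus the most frequent factor in each window, with 69.6% of the regions at Tns1 (exact 95% interval 55.9 to 81.2%), 56.4% at Cebpb-Ptpn1 (39.6 to 72.2%) and 50% at Shb (27.2 to 72.8%). Over the whole series Tbx3 made up 61.0% of regions, a share that lies within all 3 intervals. Nkx2-5 made up 26.8% at Tns1, 41.0% at Cebpb-Ptpn1 and 35.0% at Shb, against 30.9% of the series. Gata4 made up 3.57% at Tns1 (0.435 to 12.3%), 2.56% at Cebpb-Ptpn1 (0.0649 to 13.5%) and 15% at Shb (3.21 to 37.9%), against 8.09%. In the other autosomal groups of 5 or more regions the shares were 56.7% Tbx3, 33.7% Nkx2-5 and 9.59% Gata4. The share of each factor in the series lay within the interval of every window, and the intervals of the windows overlapped one another. They are Clopper-Pearson intervals and cover counting error only. Regions of 1 window are not independent, and intervals this wide cannot decide whether the make-up differs.

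**Figure D1:**
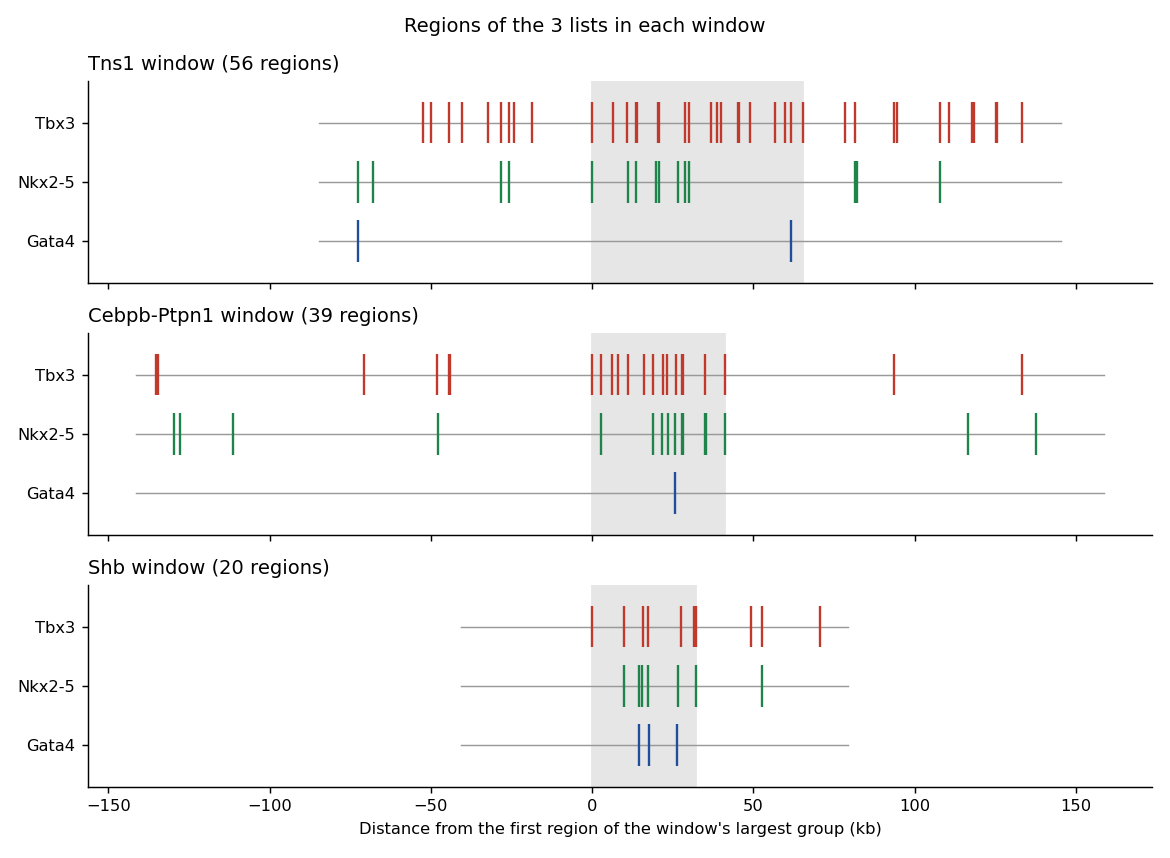
Map of the regions in the Tns1, Cebpb-Ptpn1 and Shb windows, with 1 tick at the centre of each Tbx3, Nkx2-5 or Gata4 region and distance in kb from the first region of the largest group (shaded) along the horizontal axis; horizontal lines span the windows and ticks are not drawn to region width. The Nkx2-5 ticks of the Tns1 group all lie in its lower part, while its Tbx3 ticks run through the whole group.

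The regions were unevenly spread inside the windows. At Tns1 they fell into 6 groups, none of a single region, separated by gaps of 11.5 to 18.4 kb. The largest group there, from 74034606 to 74100022, covered 28.4% of the window and held 28 of the 56 regions. The Cebpb-Ptpn1 regions fell into 8 groups, 4 of them single regions. The largest, from 167651278 to 167692591, covered 13.8% of the window and held 25 of the 39 regions, with empty stretches of 44.0 kb before it and 52.2 kb after it. At Shb 16 of the 20 regions lay in 1 group from 45470549 to 45502834, which covered 26.9% of the window. With joining gaps of 5 kb or less the largest group held 6 regions at Tns1, 20 at Cebpb-Ptpn1 and 9 at Shb, and with 20 kb the Tns1 group held all 56 regions of the window. The Tns1 window was thus occupied along most of its length, and the Cebpb-Ptpn1 window mainly in 1 block.

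By number of regions the groups of Tns1 and Cebpb-Ptpn1 were the first and the second of the 7 autosomal groups that reached the threshold, and the Shb group, with 16, was at the threshold together with a pair of others. Just below it, 2 autosomal groups held 15 regions. Over all chromosomes 9 groups reached 16 or more. Those left out of the autosomal ranking were on chromosome M (mitochondrial, 41 regions) and chromosome Y (20 regions, all of Nkx2-5). Their regions remain in the values of the whole series. The other 4 autosomal groups of 16 or more lie on chromosome 9 from 3018330 to 3036434 (22 regions, 9 of them Gata4) and from 119378821 to 119410884 (18, of which 3 are Gata4), on chromosome 4 from 147337917 to 147374645 (16, of which 12 are Gata4) and on chromosome 5 from 122951953 to 122977304 (16, of which 2 are Gata4). In the largest groups of Tns1 and Cebpb-Ptpn1 Gata4 had 1 region each, 3.57% and 4.00% of the regions. In the Shb group it had 3 of 16, or 18.8%, within the range of 12.5 to 75.0% in the other 4. Regions per 10 kb were 4.28 in the Tns1 group, 6.05 in the Cebpb-Ptpn1 group and 4.96 in the Shb group. In the other 4 they were 4.36 to 12.2, with the highest value in the chromosome 9 group from 3018330. Whether reads can be placed uniquely in any of these groups was not checked. Counted as positions, with overlapping regions joined, the values were 3.21, 4.11 and 3.10 per 10 kb. The Tns1 group was thus the least dense of the 7 by regions per 10 kb, and the Shb group by positions per 10 kb.

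In the largest group at Tns1, Tbx3 ran through the whole length and Nkx2-5 lay in the lower part. Its lower 32.7 kb held 9 Tbx3 and 8 Nkx2-5 regions, and its upper 32.7 kb held 10 Tbx3 regions, the Gata4 region and no Nkx2-5 region. The stretch without Nkx2-5 ran on past the group: 51.4 kb separated the Nkx2-5 region that ends at 74064659 from the next, which starts at 74116103, and 11 Tbx3 regions and 1 Gata4 region lay between them. Among all 6600 stretches between neighbouring autosomal Nkx2-5 regions, 48 held 11 or more Tbx3 regions with no Nkx2-5 overlap. Of these 48 the Tns1 stretch was the shortest, against a median of 627 kb and a longest of 6271 kb. Its rank is partly set by the choice of windows, which favoured many regions at short gaps, and by the limit of 11, which is its own count. The stretch was also chosen after its values were seen, so these values are a description with no test. Any Nkx2-5 signal below the threshold of the list would not appear, and depth is unknown.

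In the Cebpb-Ptpn1 group most Nkx2-5 regions lay in the upper part, while Tbx3 was evenly divided. Its lower 20.7 kb held 7 Tbx3 and 2 Nkx2-5 regions, and its upper 20.7 kb held 7 Tbx3, 8 Nkx2-5 and the 1 Gata4 region. Its longest run without Nkx2-5 was 4 Tbx3 regions from 167657339 to 167667449, within 15.98 kb free of Nkx2-5. At Shb both factors ran through the group, with 3 Tbx3 and 3 Nkx2-5 regions in the lower 16.1 kb and 4 and 3 in the upper. Its longest run without Nkx2-5 was 2 Tbx3 regions in 5.62 kb. The counts on each side of the middle of these 3 groups are few and are a description with no test.

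Overlapping regions were joined into positions, so that a position is a place held by 1, 2 or 3 lists. The 56 Tns1 regions formed 44 positions, of which 28 held Tbx3 alone, 5 Nkx2-5 alone and 9 Tbx3 with Nkx2-5. Each Gata4 region at Tns1 shared its place, 1 with Tbx3 and the other with Nkx2-5, and no position held all 3 lists. The 39 Cebpb-Ptpn1 regions formed 30 positions, of which 14 held Tbx3 alone, 8 Nkx2-5 alone, 7 both of these and 1 all 3 lists. The 20 Shb regions formed 13 positions, of which 5 held Tbx3 alone, 1 Nkx2-5 alone, 1 Gata4 alone, 4 Tbx3 with Nkx2-5, 1 Nkx2-5 with Gata4 and 1 all 3. Positions of 2 or 3 lists made up 25.0% at Tns1 (exact 95% interval 13.2 to 40.3%), 26.7% at Cebpb-Ptpn1 (12.3 to 45.9%) and 46.2% at Shb (19.2 to 74.9%). In the whole series the share was 15.7%. In the other autosomal groups of 5 or more regions it was 28.3%, which lies within all 3 intervals. Each shared position adds 2 or 3 regions to the count by which the windows were picked. A share above that of the series is therefore partly set by the choice of windows. The other groups, also formed by a count of regions, have the same limit. The intervals cover counting error only, and positions of 1 window are not independent.

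**Figure D2:**
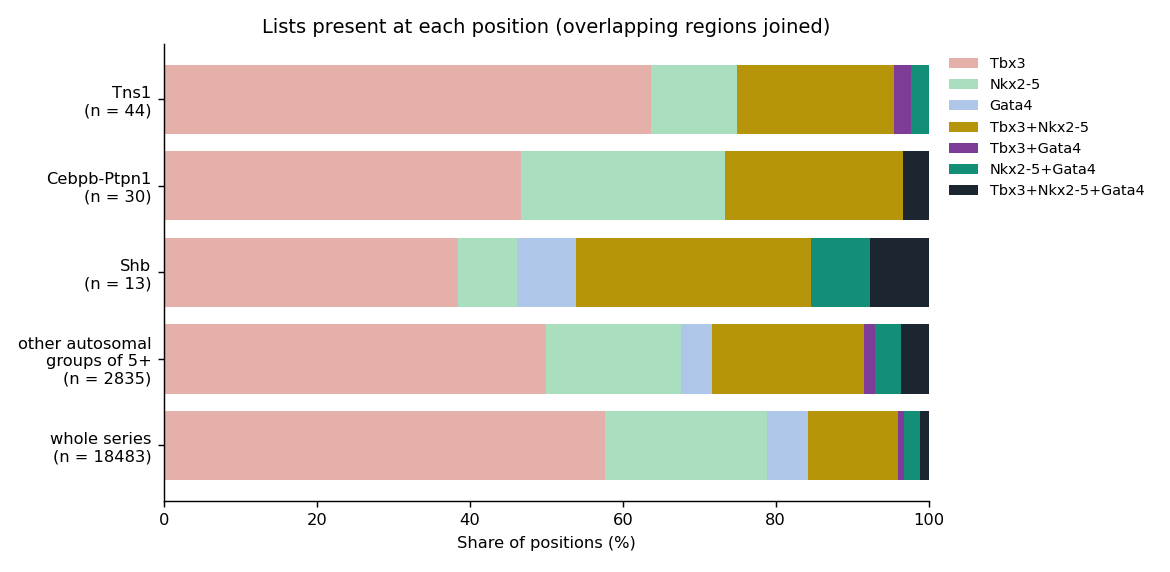
Share of positions (horizontal axis, %) held by each combination of lists in the Tns1, Cebpb-Ptpn1 and Shb windows, in the other autosomal groups of 5 or more regions and in the whole series, with the number of positions in parentheses. Tbx3 alone is the largest class in every bar, and Shb has the smallest share of it (38.5%).

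Nkx2-5 regions lay on Tbx3 regions in 9 of 15 cases at Tns1 (60.0%, exact 95% interval 32.3 to 83.7%), in 8 of 16 at Cebpb-Ptpn1 (50%, 24.7 to 75.3%) and in 5 of 7 at Shb (71.4%, 29.0 to 96.3%). Over the 3 windows this was 22 of 38 (57.9%, 40.8 to 73.7%). The background was 35.8% of all Nkx2-5 regions and 52.9% of those in other autosomal groups of 5 or more. The members' share was above the whole list, and near that of other groups. Conversely, 10 of 39 Tbx3 regions at Tns1 (25.6%), 8 of 22 at Cebpb-Ptpn1 (36.4%) and 5 of 10 at Shb (50%) lay on an Nkx2-5 region. Together these were 23 of 71 (32.4%, 21.8 to 44.5%), against 18.3% of all Tbx3 regions and 31.9% of those in other autosomal groups. In groups, other regions are near by the way groups are made, and the part of crowding in these shares was not tested.

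**Figure D3:**
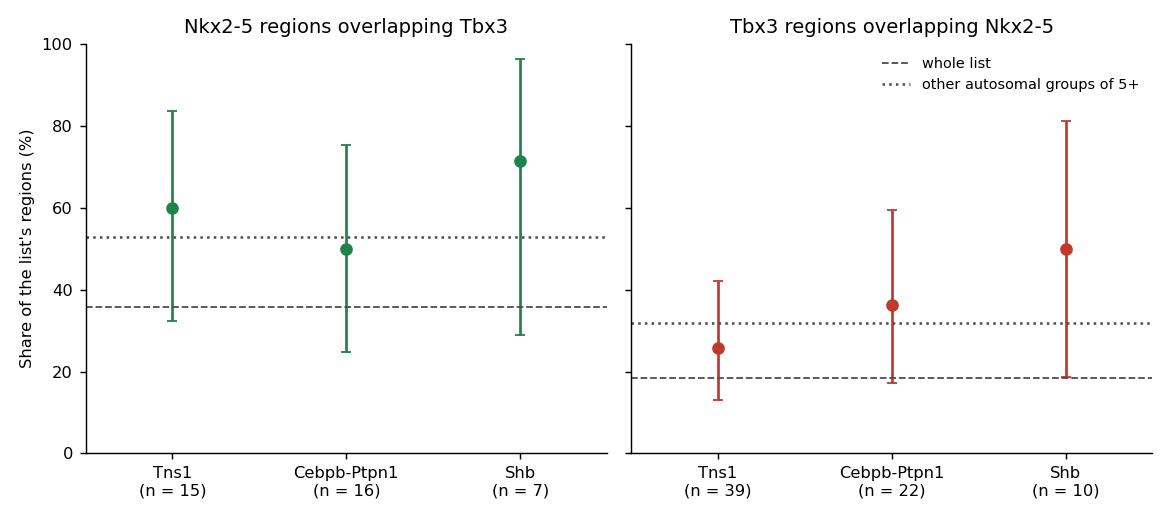
Share (vertical axis, %) of Nkx2-5 regions that overlap Tbx3 (left) and of Tbx3 regions that overlap Nkx2-5 (right) in each window, as points with exact 95% intervals and the number of regions in parentheses; the dashed line is the whole list and the dotted line the other autosomal groups of 5 or more regions. The dotted line (52.9% and 31.9%) crosses the interval of every window.

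Regions of about this width that overlap must have centres close together, so the distances at shared places are given as a description. At Tns1 the closest pair had centres 2 bp apart, where the Tbx3 region from 74064513 to 74064641 lay inside the Nkx2-5 region from 74064499 to 74064659. A pair 3.5 bp apart followed (Tbx3 from 74006453 and Nkx2-5 from 74006446, both to 74006552), and then one 6.5 bp apart in which both regions start at 74142460. At Cebpb-Ptpn1 the closest Tbx3 regions, at 167679254 to 167679365, 167654026 to 167654171 and 167678927 to 167679056, had centres 6, 19 and 23.5 bp from those of Nkx2-5. At Shb the closest Tbx3 regions, at 45523150 to 45523292, 45486029 to 45486331 and 45502687 to 45502805, lay 14, 16 and 32 bp from Nkx2-5. Over the 3 windows 23 such pairs had a median distance of 32.5 bp and a largest of 140.5 bp, against a median of 38.5 bp over all 2445 pairs of the series. One region lay wholly inside the other in 11 of the 23 (47.8%), against 38.0% of all pairs.

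The 16 Nkx2-5 regions of the windows that overlapped no Tbx3 region lay at varied distances from Tbx3. The windows were chosen for many regions at short gaps, which favours a near Tbx3 region. No share over all such Nkx2-5 regions of the list is set beside these counts, so they are a description. Of these, 6 had Tbx3 within 500 bp, with the nearest 110 bp away at Tns1 and 115 bp away at Cebpb-Ptpn1. Another 4 lay more than 10 kb from Tbx3, 2 at the lower end of the Tns1 window and 2 in the outer parts of the Cebpb-Ptpn1 window, up to 23115 bp away. Both such Shb regions had Tbx3 within 1 kb, at 784 and 992 bp.

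All 3 factors met at 1 position between Cebpb and Ptpn1 and at 1 position at Shb, and at none at Tns1. These were 2 of the 87 positions of the 3 windows (2.30%, exact interval 0.280 to 8.06%). The share was 1.18% in the whole series and 3.63% in the other autosomal groups of 5 or more regions. The interval includes each of these shares, but with 2 positions it is too wide to decide whether the windows differ. It covers counting error only, and positions of 1 window are not independent. Each such position also adds 3 regions to the count by which the windows were picked. Between Cebpb and Ptpn1, Nkx2-5 at 167677020 to 167677142 and Gata4 at 167677032 to 167677145 had centres 7.5 bp apart. Tbx3 covered 167677038 to 167677349 there, with its centre 112.5 bp from that of Nkx2-5. At Shb, Tbx3 covered 45487705 to 45488030, Nkx2-5 45487896 to 45488016 and Gata4 45487911 to 45488172. The Nkx2-5 region lay wholly inside the Tbx3 region, and the Gata4 centre was 85.5 bp from that of Nkx2-5 and 174 bp from that of Tbx3.

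Gata4 regions were few, and 5 of the 6 overlapped a region of another list, against 756 of 1756 in the whole list. Such sharing was also common in the other autosomal groups of 5 or more. There 115 positions held Gata4 alone, 39 held it with Tbx3, 97 with Nkx2-5 and 103 with both. Over the windows 4 of 6 overlapped Nkx2-5, against 33.4% of all Gata4 regions and 56.5% of those in other autosomal groups of 5 or more. For Tbx3 it was 3 of 6, against 21.3% and 39.7%. With 6 regions the exact 95% intervals (22.3 to 95.7% and 11.8 to 88.2%) include all of these values. At Shb the region at 45484966 to 45485125 overlapped nothing but ended 8 bp before an Nkx2-5 region, and the one at 45496913 to 45497015 shared 22 bp with Nkx2-5. Of the 3 Gata4 regions at Shb, 2 thus overlapped Nkx2-5. The windows were chosen for many regions at short gaps, which favours overlaps and near neighbours of Gata4 in all 3 windows. At Tns1 the region at 73961760 to 73961996 shared 42 bp with Nkx2-5 and was 20132 bp from the nearest Tbx3 region. The other Tns1 region, at 74096195 to 74096312, lay inside the widest Tbx3 region of the windows (435 bp, 74095999 to 74096433) and was 19790 bp from Nkx2-5.

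Spacing inside the 3 largest groups was measured as the gap between neighbouring positions. The median gap was 2775 bp at Tns1 (20 gaps, 110 to 7356 bp), 2282 bp at Cebpb-Ptpn1 (16 gaps, 115 to 6650 bp) and 1364 bp at Shb (9 gaps, 8 to 9634 bp). Gaps of 500 bp or less numbered 4, 4 and 1. Over the other autosomal groups of 5 or more regions the median was 2075 bp (2265 gaps), and over the other 4 autosomal groups of 16 or more it was 881.5 bp (46 gaps). The Tbx3 regions of the Tns1 group had a median gap of 3139 bp and its Nkx2-5 regions one of 2458 bp. At Cebpb-Ptpn1 these were 2692 and 2160 bp, and at Shb they were 4577 and 4488 bp. All these groups were formed by joining gaps of 10 kb or less, which also served to pick the windows. No gap could thus exceed 10 kb, and the shared range is set in advance. Neighbouring gaps in a group share regions and were not tested.

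**Figure D4:**
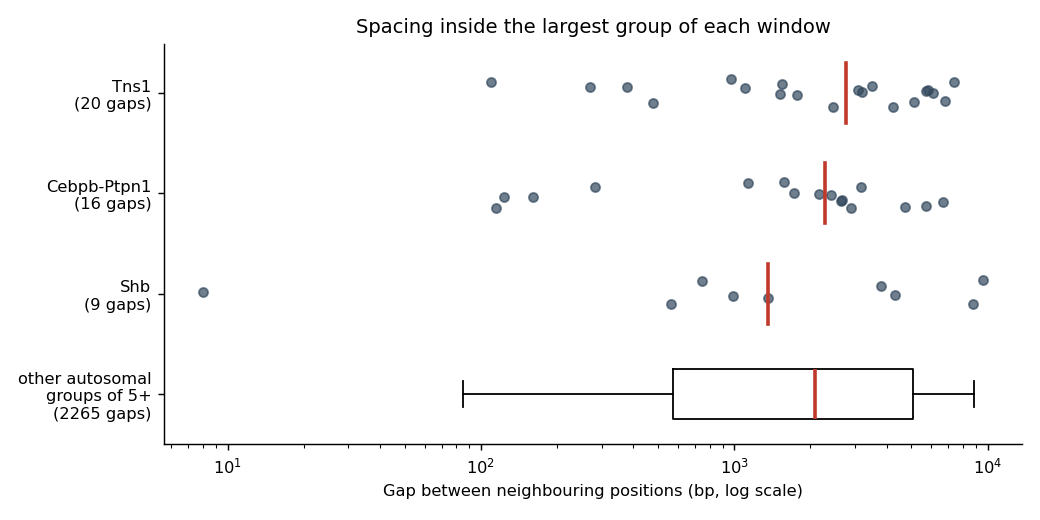
Gaps between neighbouring positions (bp, log scale) inside the largest group of each window, 1 point per gap with the median as a red line, beside a box plot of the other autosomal groups of 5 or more regions (box: quartiles, red line: median, whiskers: the 5th and 95th percentiles; 1 gap of 0 bp is left off). The medians of the windows lie at 1364 to 2775 bp. All groups were formed with gaps of 10 kb or less, so a shared range is set in advance.

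Some regions had a close neighbour of their own list. In the windows 16 of 71 Tbx3 regions had another Tbx3 region within 500 bp (22.5%), against 16.5% of the whole list and 28.9% in the other autosomal groups of 5 or more. For Nkx2-5 it was 6 of 38 (15.8%), against 6.99% of the list and 16.5% in the other groups. For Gata4 it was 0 of 6, against 6.15% and 14.6%. The choice of windows favoured regions at short gaps, so a share above that of the whole list is partly set by it. Neither the Tbx3 nor the Nkx2-5 share was above that of the other groups. The closest Tbx3 pairs were 56 bp apart at Tns1 (74054988 to 74055277 and 74055334 to 74055449), where 1 Nkx2-5 region of 347 bp overlapped both, and 70 bp apart at Cebpb-Ptpn1 (167606879 to 167607002 and 167607073 to 167607311). At Cebpb-Ptpn1 a pair of neighbouring Tbx3 regions, 197 bp apart, was matched by a pair of Nkx2-5 regions 161 bp apart at the same 2 places (Tbx3 at 167678927 to 167679056 and 167679254 to 167679365). At Shb no region had a neighbour of its own list within 500 bp. These pairs were chosen after their values were seen, and whether both regions of a pair belong to 1 stretch was not tested.

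Region width, which the choice of windows did not use, was close to that of the lists. Median width was 140 bp for the 71 Tbx3 members against 147 bp for the list, and 153 bp for the 38 Nkx2-5 members against 142 bp. Of these members 31 Tbx3 and 21 Nkx2-5 regions were wider than their list's median. The widest Nkx2-5 regions were 347 bp at Tns1 (74055100 to 74055446), 308 bp at Cebpb-Ptpn1 (167686037 to 167686344) and 353 bp at Shb (45485988 to 45486340). Each of them overlapped Tbx3. The widest Tbx3 regions at Cebpb-Ptpn1 (312 bp) and Shb (326 bp) were those of the positions with all 3 factors. The widest Gata4 regions were 237 bp at Tns1, 114 bp at Cebpb-Ptpn1 and 262 bp at Shb. At Shb shared Tbx3 regions had a median width of 286 bp (5 regions, 119 to 326 bp) and unshared ones 128 bp (5 regions, 114 to 138 bp), and these ranges overlap. At Cebpb-Ptpn1 the medians were 142 bp for 8 shared and 120.5 bp for 14 unshared Tbx3 regions, and over the 3 windows they were 144.5 and 138 bp. In the whole Tbx3 list they were 166 and 143 bp. Only Tns1 among the 3 windows had the other order, with 142 bp for 11 shared and 151.5 bp for 28 unshared regions. A wider region has more room to overlap another by 1 bp or more, so width and sharing are not independent. The part of this in the widths was not tested.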

How the data were processed

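Regions of Tbx3, Nkx2-5 and Gata4 were read from the lists deposited by the authors, which give chromosome, start and end (unit: other, positions in bp) with no score. Per the submitters' processing notes, coordinates are on mm9. How reads were aligned, how regions were called, how the control served and how deep each library was: not given in the sources used here. No region was narrower than 100 bp, and gaps within a list were at least 51 bp. Positions are printed counted from 1. Python 3.11.15 and scipy 1.17.1 were used. Overlap meant 1 bp or more, and groups joined regions across 10 kb. Counting was tested on simulated data. Named regions were those held by all 3 lists, the widest of each list, the 3 closest Tbx3 and Nkx2-5 pairs per window and the ends of the largest groups. Others were chosen after their values were seen. The windows, members and comparisons were chosen with earlier results of these data known. With 1 library per factor no test between samples was possible.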

Additional observations from a re-analysis of the deposited data

How the results depend on the processing

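Of 53 alternatives, 34 stayed within 1.5 times of the reported count. The group sizes depend on the joining gap: at 5 kb the largest group fell to 6 regions at Tns1 and 9 at Shb, against 20 at Cebpb-Ptpn1, and at 20 kb the Tns1 group took in all 56 regions of its window. Keeping the wider 50% of each list (widths at or above its median) left 31 regions at Tns1, 17 at Cebpb-Ptpn1 and 8 at Shb, with largest groups of 14, 11 and 7. Nkx2-5 regions on Tbx3 were then 3, 2 and 2, and Gata4 regions on Nkx2-5 were 0 in each window. Requiring overlap of 50% of the shorter region left 0 Gata4 regions on Nkx2-5 at Tns1 and 1 at Shb. With the shorter motif cores, 1 of the 4 promoters matched for NK2 and 1 for GATA, against 0 with the longer forms. Shorter lists and stricter overlap lower counts by construction. Leaving out very wide regions (400 bp or more) and all others within 10 kb of them, which for the groups was chosen after seeing the data, left 51 regions and a largest group of 23 at Tns1, and changed no count in the other windows. No paired analysis was possible because each factor has 1 library, and leaving out a library was not possible for the same reason.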
